A study of Mus musculus with 32 samples.

Results

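The metabotropic glutamate receptors were examined in the frontal cortex (FCtx) of mice that had drunk ethanol and of mice that had not, as all probes of the array whose gene symbol is Grm2, Grm3, Grm4, Grm5, Grm7 or Grm8. Of these 6 genes, 4 had a probe, 1 each, in a table of 18138 gene symbols and 25697 probes: Grm3 (ILMN_1238513), Grm4 (ILMN_3162152), Grm7 (ILMN_2872782) and Grm8 (ILMN_2711523). No probe carried the symbol Grm2 or Grm5, which were therefore not analysed here. RNA from the FCtx of each of 32 mice, 20 ethanol-treated and 12 control, was profiled on its own Illumina MouseRef-8 array, a bead array that reads each probe on many beads, with 8 arrays to a chip. The ethanol-treated mice had access to 20% ethanol for 20 days, in a choice with water, and the controls were untreated. Access was limited: by the Methods, both bottles were offered in 3-hour sessions in the dark phase. Brains were taken 20 hours after the last session. All mice were C57BL/6J x FVB/NJ F1 hybrids by their labels; the Methods describe females of reciprocal crosses, and the labels do not say which mouse came from which cross or give ages. The mice on chips 1 and 2 had drunk ethanol and those on chip 4 had not. On chip 3 the groups alternated along the chip, with the 4 ethanol-treated mice at A, C, E and G, here the odd positions, and the 4 controls at the even ones. Treatment therefore coincided with position on chip 3 and with chip elsewhere.

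Metabotropic glutamate receptors are G protein-coupled receptors for glutamate that slow or tune transmission rather than carry it. Group I receptors, such as the product of Grm5, couple to Gq and phospholipase C and lie mostly on the postsynaptic side. Group II (Grm2, Grm3) and group III (Grm4, Grm7, Grm8) couple to Gi and Go, inhibit adenylyl cyclase and restrain transmitter release from nerve terminals, and Grm3 is also made by astrocytes. The product of Grm7 sits in the active zone of the presynaptic membrane, where glutamate is released, and binds the scaffold Pick1.

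The results turned on the Grm7 and Grm8 probes, the only members detected above background, so their sequences are shown. Each is 50 bases long and is written 5′ to 3′. The capitals mark the longest run of bases that both share, which is 7 bases long.
Grm7 probe: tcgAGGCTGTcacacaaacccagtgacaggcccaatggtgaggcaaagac
Grm8 probe: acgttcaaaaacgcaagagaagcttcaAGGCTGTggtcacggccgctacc
The deposited annotation places the Grm7 probe at chr6:111445815-111445864 on the plus strand and the Grm8 probe at chr6:27235819-27235868 on the minus strand. The Grm3 probe is at chr5:9485311-9485360 and the Grm4 probe at chr17:27578585-27578634, both on the minus strand. The genome build of these positions is not given in the sources used here. The Grm4 and Grm8 positions fall outside their genes in the GRCm38 annotation, so the positions were not set against exons. Within their transcripts the file starts the Grm7 probe at base 2890 and the Grm8 probe at base 2915.

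Grm7 and Grm8 were detected on 32 of 32 arrays, with a detection p-value below 0.01 against negative control beads, and Grm3 and Grm4 on 0 of 32. For Grm3, the signal before normalization lay between 135 and 176 (median 150) in ethanol-treated mice and between 125 and 154 (median 137) in controls. For Grm4, it lay between 157 and 191 (median 169) in ethanol-treated mice and between 134 and 173 (median 149) in controls. The lowest signal that counted as detected on an array lay between 160 and 224 (median 196) over the 32 arrays, so these values give only an upper bound for both receptors. The detection p-value of Grm4 came as low as 0.0113 in 1 ethanol-treated mouse, A39, and 0.0238 in 1 control, C57, whereas that of Grm3 was never below 0.211. No fold change is given for either, and a probe that is not well above background does not show that the gene was silent.

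**Figure D1:**
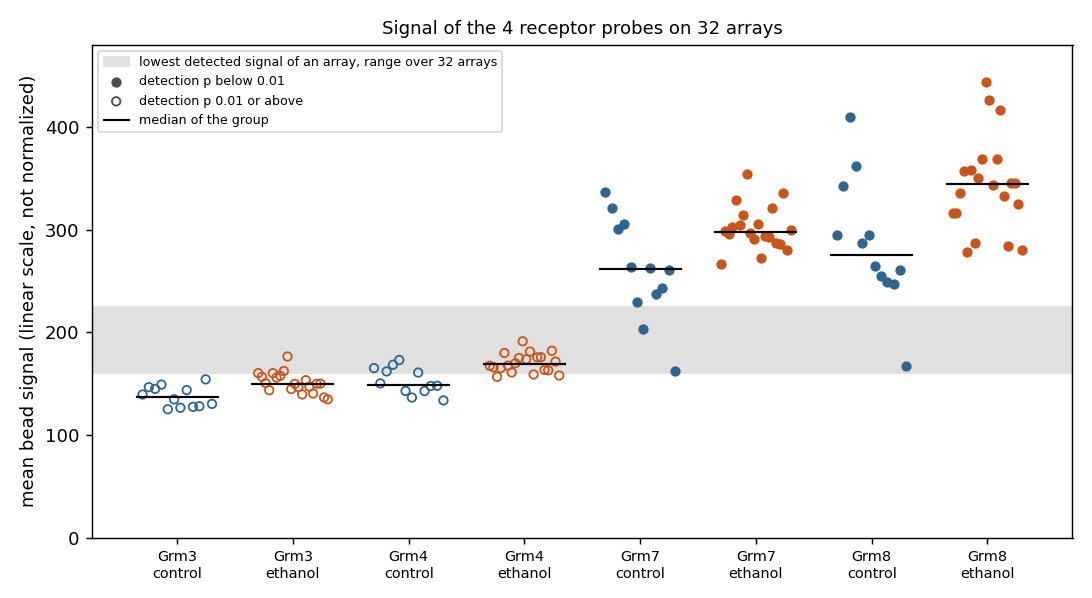
Mean bead signal of the 4 receptor probes on a linear scale before normalization, with 1 point for each array by receptor and group, filled where the detection p-value was below 0.01, and a line at each median. Every Grm7 and Grm8 point is filled and every Grm3 and Grm4 point is open, and the grey band spans the lowest detected signal of the arrays, 160 to 224.

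For Grm7, the signal lay between 266 and 354 (median 298) in ethanol-treated mice and between 163 and 337 (median 262) in controls. For Grm8, it lay between 279 and 444 (median 344) in ethanol-treated mice and between 167 and 410 (median 276) in controls. The groups overlapped for both receptors, as the plot of signals shows, and the lowest value of each came from the control C66, with 163 and 167. These signals are not normalized. The median signal of an array over all probes lay between 166 and 203 in ethanol-treated mice and between 146 and 187 in controls, again with C66 lowest, which also had the fewest detected probes, 9480 against 10644 to 11544 in ethanol-treated mice and up to 11413 in other controls.

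After variance stabilization and quantile normalization, which put all arrays on a shared log2 scale, the mean of Grm7 was 8.41 ± 0.09 (SD, n = 20) with ethanol and 8.36 ± 0.11 (SD, n = 12) without. Grm8 averaged 8.54 ± 0.13 (SD, n = 20) and 8.47 ± 0.13 (SD, n = 12). For Grm7, 11 of 20 ethanol-treated mice lay above the control median, and for Grm8, 16 of 20. The 2 groups still overlapped: 3 ethanol-treated mice exceeded the highest control for Grm7 and 2 for Grm8, and no ethanol-treated mouse fell below the lowest control for either.

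Neither receptor passed an FDR of 1% in the comparison of all 32 arrays. The difference, ethanol minus control, was 0.04 on the log2 scale for Grm7 (standard error 0.04, adjusted p = 0.467 by limma), with a 95% interval of -0.03 to 0.12. It was 0.08 for Grm8 (standard error 0.05, adjusted p = 0.255 by limma), with a 95% interval of -0.02 to 0.17. These intervals include 0 and increases up to their upper ends. Unadjusted p-values from limma were 0.270 and 0.107, so neither receptor passed an unadjusted 0.05 either. The count of receptor probes called was 0 of 2 tested, where 839 of 10187 probes (8.24%) passed, 362 higher and 477 lower. With an FDR below 10% and at least a 1.1-fold change, 13% of probes passed and again neither receptor did. No background was subtracted in this fit. With normexp background correction and a log2 transform, the difference was 0.097 for Grm7 (95% interval -0.06 to 0.26). For Grm8 it was 0.16 (95% interval -0.03 to 0.34), so the upper ends depend on the background. In bulk tissue, fewer cells of a type and less RNA per cell cannot be told apart.

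Set out by chip, the values of both receptors were lowest on average on chip 4. Grm7 averaged 8.41 ± 0.11 (SD, n = 8) on chip 1 and 8.39 ± 0.08 (SD, n = 8) on chip 2, both ethanol, and 8.32 ± 0.11 (SD, n = 8) on chip 4, which held controls. Grm8 averaged 8.46 ± 0.09 (SD, n = 8), 8.64 ± 0.15 (SD, n = 8) and 8.41 ± 0.09 (SD, n = 8) on the same chips. Its 2 highest values, 8.86 in mouse A39 and 8.78 in mouse A44, were both on chip 2.

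On chip 3, which held both groups, the order turned. The 4 ethanol-treated mice there had Grm7 values of 8.39 (A46), 8.47 (A47), 8.34 (A49) and 8.54 (A50), and the 4 controls 8.52 (C52), 8.51 (C54), 8.41 (C55) and 8.38 (C56). For Grm8 the ethanol-treated mice had 8.60, 8.50, 8.49 and 8.47 in that order, and the controls 8.39, 8.58, 8.75 and 8.56. Ethanol-treated mice and controls overlapped for both receptors, and the control mean was the higher for each.

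**Figure D2:**
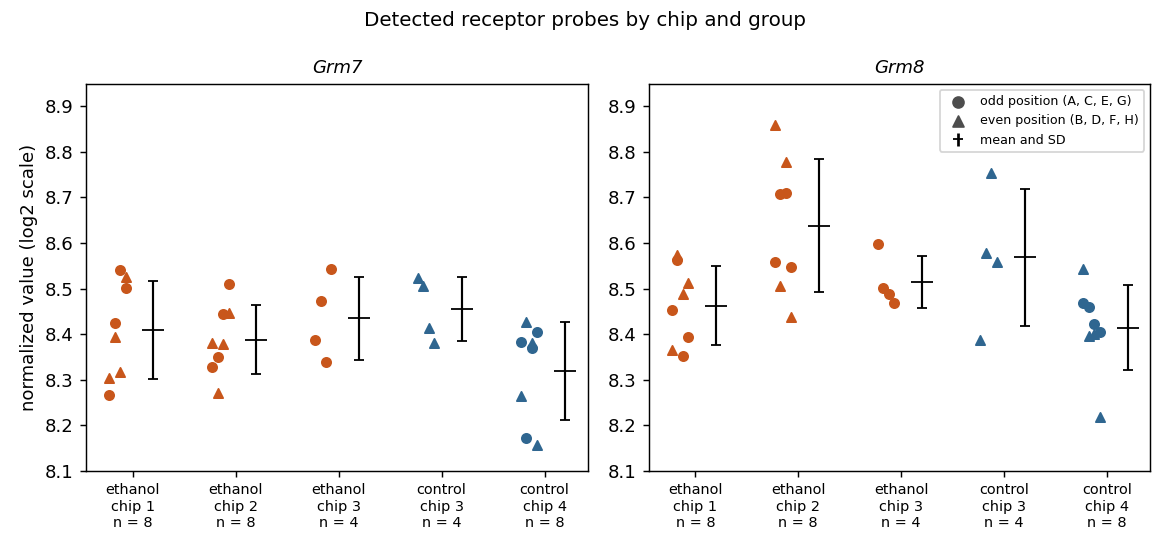
Normalized values of Grm7 (left) and Grm8 (right) on the log2 scale, with 1 point for each array by group and chip, circles for odd and triangles for even positions, and the mean and SD beside each set. The controls of chip 4 have the lowest mean for both receptors, 8.32 and 8.41, and the controls of chip 3 lie above them, at 8.46 and 8.57.

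These sets were compared by limma in a model with 1 mean for each group on each chip. Between chips, ethanol on chips 1 and 2 exceeded control on chip 4 by 0.08 for Grm7 (95% interval -0.0048 to 0.16, adjusted p = 0.155 by limma) and by 0.14 for Grm8 (95% interval 0.04 to 0.23, adjusted p = 0.0301 by limma). Neither passed an FDR of 1%, which 15.2% of probes did. With the chip 3 arrays left out of the fit, the adjusted p-values from limma were 0.181 and 0.0686. Median scaling in place of quantile normalization raised the Grm8 value to 0.22 (adjusted p = 0.00343 by limma), past the threshold, where 19.1% of probes passed and the median of all probes tested moved by 0.10. Over all the transforms, backgrounds, normalizations and filters tried, the adjusted p of this contrast ranged from 0.00343 to 0.0557 for Grm8 and from 0.0116 to 0.234 for Grm7.

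Within chip 3, ethanol minus control was -0.02 for Grm7 (95% interval -0.16 to 0.12, adjusted p = 0.903 by limma) and -0.06 for Grm8 (95% interval -0.21 to 0.10, adjusted p = 0.745 by limma), where 0.137% of probes passed. The contrast within chip 3 minus that between chips was -0.10 for Grm7 (95% interval -0.26 to 0.06, adjusted p = 0.449 by limma) and -0.19 for Grm8 (95% interval -0.38 to -0.0070, adjusted p = 0.176 by limma). Of all probes, 3.52% passed in this comparison and neither receptor did, so a difference between the 2 contrasts was not established for either receptor.

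Some estimates between chips within 1 treatment were as large as those between treatments. Controls on chip 3 exceeded controls on chip 4 by 0.14 for Grm7 and by 0.16 for Grm8 (adjusted p = 0.114 and 0.117 by limma, where 6.55% of probes passed). Among ethanol-treated mice, chip 2 exceeded chip 1 by 0.18 for Grm8 (95% interval 0.06 to 0.29, adjusted p = 0.0875 by limma), while the value for Grm7 was -0.02 (adjusted p = 0.877 by limma). Of all probes, 0.216% passed in that comparison. Odd minus even positions on chips 1, 2 and 4 gave 0.04 for Grm7 and -0.0030 for Grm8 (adjusted p = 0.581 and 0.976 by limma, where 3.87% of probes passed).

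**Figure D3:**
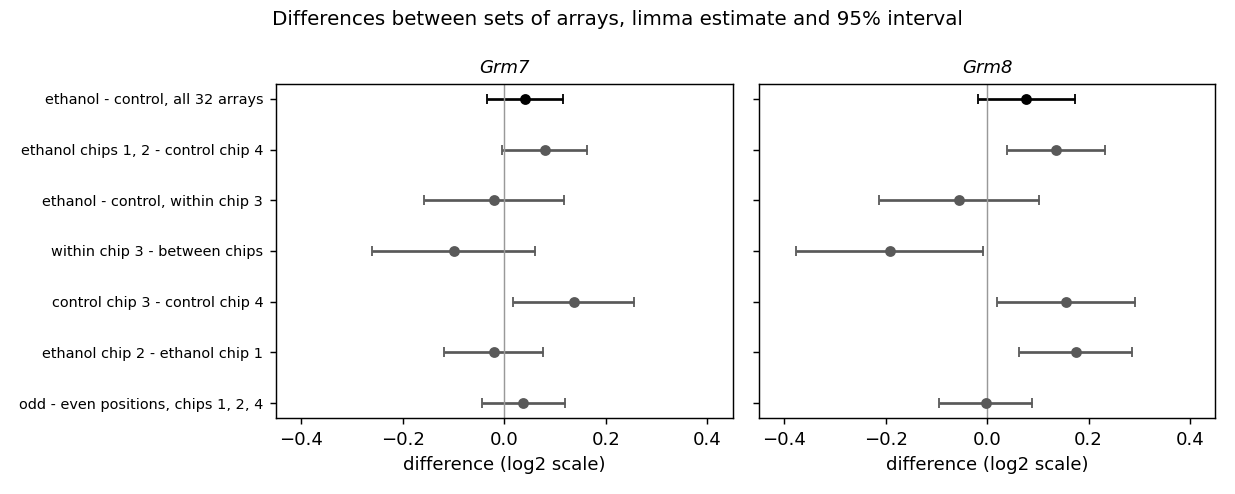
Differences between sets of arrays for Grm7 (left) and Grm8 (right) on the log2 scale, each a limma estimate with its 95% interval and a vertical line at 0. The comparison of all 32 arrays includes 0 for both receptors, whereas the Grm8 intervals of chips 1 and 2 against chip 4, of controls on chip 3 against chip 4 and of chip 2 against chip 1, and the Grm7 interval of controls on chip 3 against chip 4, lie above 0.

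The 2 detected receptors had a correlation close to 0 across mice. With each probe centred within its group and chip, the Pearson correlation of Grm7 with Grm8 over 32 arrays was -0.06. The probes most like Grm7 by this measure were those of Shd (r = 0.689), Rps6ka1, a ribosomal S6 kinase (r = 0.651), and Pnma1 (r = 0.622). Those most like Grm8 were Nipbl, which loads cohesin onto chromosomes (r = 0.692), Ss18, a subunit of a chromatin remodelling complex (r = 0.620), and 4931406C07Rik (r = 0.618). The median absolute correlation over all probes tested was 0.140 with Grm7 and 0.150 with Grm8. Arrays of 1 chip share their processing, and these correlations are descriptions without a test.

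The genes around the receptors were described by 5 lists of transducers, scaffolds and transporters, each gene by the brightest of its tested probes. Of 48 list genes in the table, 34 were tested and 5 passed an FDR of 1%, 2 of them higher and 3 lower with ethanol, which is 14.7% against 8.04% of the 7926 genes tested in all (2.96% higher and 5.07% lower). The median difference over the 34 genes was 0.05, and over all genes tested it was -0.0063. The plot of the pathway genes shows all 34.

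Among the Gi and Go signalling genes that serve groups II and III, 2 of 6 tested passed, in opposite directions. Gnao1, the alpha subunit of Go, rose from 11.32 ± 0.20 (SD, n = 12) to 11.53 ± 0.11 (SD, n = 20), by 0.21 (standard error 0.05, adjusted p = 0.00420 by limma). Its other tested probe gave 0.11 (adjusted p = 0.119 by limma). Gnai2, the alpha subunit of an inhibitory G protein, fell from 9.83 ± 0.09 (SD, n = 12) to 9.61 ± 0.17 (SD, n = 20), a difference of -0.21 (standard error 0.05, adjusted p = 0.00371 by limma).

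Of the 8 group I signalling genes tested, 0 passed by limma. Gnaq, the alpha subunit of Gq, differed by 0.16 (standard error 0.07, adjusted p = 0.120 by limma). Among receptor scaffolds and partners, 1 of 10 passed. Dlgap1, a scaffold of the postsynaptic density, rose from 8.11 ± 0.11 (SD, n = 12) to 8.32 ± 0.14 (SD, n = 20), by 0.22 (standard error 0.05, adjusted p = 0.00119 by limma). Homer1, which tethers group I receptors, differed by 0.19 with its brightest probe and 0.14 with its other probe (adjusted p = 0.0137 and 0.0291 by limma). Pick1, the partner of the Grm7 product, differed by 0.02 with each of its 2 tested probes (adjusted p = 0.831 and 0.801 by limma). The 3 tested probes of Ncdn, which encodes neurochondrin, gave -0.11, -0.14 and -0.18, and the adjusted p of limma was 0.231, 0.220 and 0.00167, so the call depends on the probe.

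Among genes of receptor desensitization, 1 of 4 passed: Arrb2, an arrestin that uncouples receptors from G proteins, fell from 9.09 ± 0.08 (SD, n = 12) to 8.92 ± 0.12 (SD, n = 20), a difference of -0.18 (standard error 0.04, adjusted p = 0.00235 by limma). Among genes that supply or clear glutamate and the dipeptide NAAG, 1 of 6 passed. Slc17a7, the vesicular glutamate transporter of most cortical excitatory neurons, fell from 12.39 ± 0.18 (SD, n = 12) to 12.13 ± 0.19 (SD, n = 20), a difference of -0.26 (standard error 0.06, adjusted p = 0.00453 by limma). Slc1a2, the main glutamate transporter of astrocytes, differed by 0.04 with its brightest probe and -0.11 with its other probe (adjusted p = 0.460 and 0.106 by limma).

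**Figure D4:**
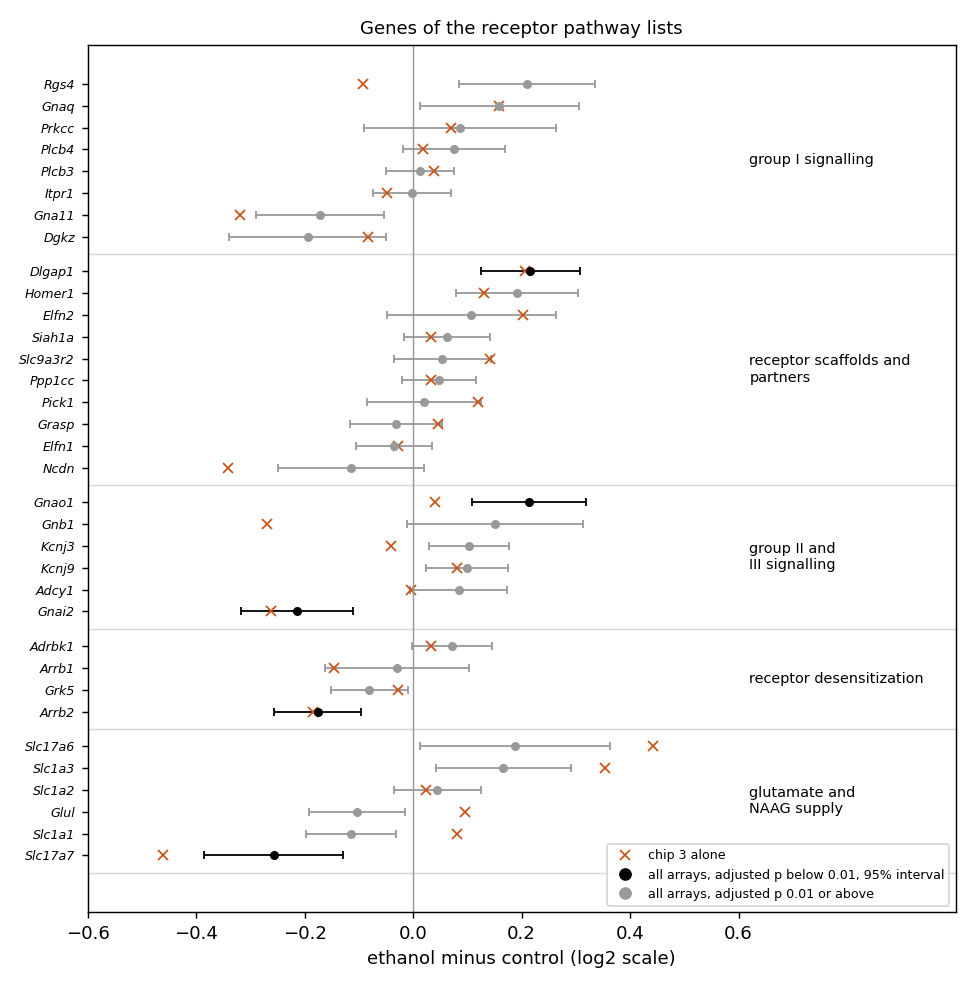
Ethanol minus control on the log2 scale for the 34 tested pathway genes in their 5 lists, as the limma estimate over 32 arrays with its 95% interval, black where the adjusted p was below 0.01, and a cross for the value on chip 3. Dlgap1, Gnao1, Gnai2, Arrb2 and Slc17a7 are black, and the crosses of Slc17a7 (-0.46) and Gnao1 (0.04) lie far from their estimates.

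On chip 3 the 5 genes that passed had the same sign as over all arrays, with 0.21 for Dlgap1, 0.04 for Gnao1, -0.26 for Gnai2, -0.18 for Arrb2 and -0.46 for Slc17a7. The chip 3 arrays are part of the comparison that picked these genes, so the shared sign is no separate support. Some other genes of the lists changed sign on chip 3. When chip entered the model as a fixed block, 0 of the 34 passed an FDR of 1% by limma, where 14 of all probes (0.137%) did and 2008 had an unadjusted p below 0.05. Fitted on the 8 arrays of chip 3 alone, 4 of the 34 passed by limma, where 2.92% of all probes did: of the 5 above Slc17a7 (-0.46), and besides it Ncdn (-0.34), Slc17a6, another vesicular glutamate transporter (0.44), and Slc1a3, a glutamate transporter of astrocytes (0.35), the last 2 named after their values were seen. Treatment coincides with position on chip 3. Odd minus even positions on chips 1, 2 and 4 had the same signs: -0.19 for Slc17a7, -0.10 for Ncdn, 0.25 for Slc17a6 and 0.24 for Slc1a3. With chip and position in the model, 0 of the 34 passed by limma. With median scaling only Dlgap1 passed (0.24) and none of the 3 falls did, at -0.098 for Gnai2, -0.076 for Arrb2 and -0.16 for Slc17a7, where the median of all probes tested was 0.07. Without control C66, Gnao1 and Slc17a7 no longer passed (adjusted p = 0.0118 and 0.0125 by limma), which left 3 of 34.

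Markers of the tissue were present: 7 of 9 neuron, 9 of 11 astrocyte and 9 of 11 oligodendrocyte markers in the table were detected widely enough to be tested. Of microglia markers 12 of 13 were tested, of endothelium 7 of 8 and of striatum 4 of 8, where 7926 of all 18138 gene symbols were. Of 55 marker genes tested over 7 lists, 1 passed (1.82%, against 8.04% of all genes tested). This was Aqp4, the water channel of astrocytes, with a difference of 0.49 (adjusted p = 0.00118 by limma). It also passed on chip 3 alone (0.52, adjusted p = 0.00517 by limma). It no longer passed with chip as a fixed block (0.52, adjusted p = 0.131 by limma) or with chip and position (0.21, adjusted p = 0.796 by limma). Fitted on the 8 arrays of chip 3 alone, 9 of the 55 marker genes passed, against 244 of the 7926 genes tested. Among the 9 were 4 olfactory bulb and 2 astrocyte markers, and 1 each of neurons, oligodendrocytes and endothelium. Odd minus even positions on chips 1, 2 and 4 gave a median of 0.29 for the 7 tested olfactory bulb markers, of 11 in the table. The medians were -0.14 for 9 oligodendrocyte and 0.03 for 9 astrocyte markers. On chip 3, where position coincided with treatment, the median ethanol minus control was 0.39, -0.38 and 0.11 in that order. The mean standardized level of the olfactory bulb markers there lay between -0.03 and 0.74 in ethanol-treated mice and between -1.22 and -0.33 in controls, with Tbx21 and Eomes among the 4 markers not detected widely enough to be tested. The level of the astrocyte markers, 9 of 11 tested, did not overlap there either, with 0.26 to 0.38 in ethanol-treated mice and -0.59 to -0.057 in controls, and that of the oligodendrocyte markers did overlap, with -0.92 to -0.29 and -0.52 to 2.03. The level of the glutamate and NAAG supply list did not overlap on chip 3, with -0.05 to 0.30 and -0.75 to -0.13. All other marker and pathway lists overlapped there. How often genes of the whole array fail to overlap on chip 3 was not counted. These list levels are descriptions without a test. Centred within group and chip, the levels of the 7 marker lists had Pearson correlations over 32 arrays between -0.23 (striatum) and 0.48 (astrocytes) with Grm8, where olfactory bulb had 0.38. With Grm7 they lay between -0.40 (neurons) and 0.31 (endothelium). The Grm8 mean on chip 3 was 8.51 in the ethanol-treated mice and 8.57 in the controls. The part of tissue composition in the chip 3 values of the receptors and of Slc17a7 was not tested.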

How the data were processed

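The 32 arrays each hold 1 mouse, and groups, chips and positions came from the array labels, so replicates are separate mice. The authors deposited intensities as the mean bead signal of each probe without normalization, on a linear scale and with no background subtraction visible in the values, a detection p-value for each probe, which compares it with negative control beads, and other values, namely the bead standard error and how many beads were read, 25 to 62 for the receptor probes. The software behind these values is not given in the sources used here. The submitters' processing notes name lumi and limma.

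Signals were variance-stabilized after the method the study names, rewritten from the bead standard errors and bead numbers, and quantile-normalized in R 4.3.3. A probe was kept where its detection p-value fell below 0.01 in 24 or more arrays (75%), and the 10187 probes kept were fitted by limma 3.58.1 without covariates, with Benjamini-Hochberg adjustment over these probes and a threshold of 0.01. The share of arrays is that of the presence filter the study gives for its network; the detection p-value of 0.01 was chosen here. Contrasts by chip used 1 mean for each group on each chip. A probe that was not detected on any array of either group has no fold change. The transform and fits were tested on simulated data. Python 3.11.15 with pandas 2.3.3 and matplotlib 3.10.9 served for figures and sequences.

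The form of the transform was revised after receptor values from a first form had been seen, because the first form counted background variance in both of its terms; the first form is kept as an alternative. The members and the gene lists were chosen with earlier results of these data known. Named genes are all members, every pathway gene that passed in the comparison of all arrays, Homer1, Ncdn, Pick1, Gnaq, Gnao1 and Slc1a2 in any case, and the 3 genes most correlated with each tested member. Alternatives were other transforms, backgrounds, scalings and filters, chip as a fixed or random block, chip 3 alone or left out, position, array weights and leaving out arrays. The number of arrays limits the precision of these values.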

Additional observations from a re-analysis of the deposited data

Results flagged for a closer look

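In each group of 4 to 8 arrays on a chip, the gap from the highest or lowest array to its neighbour was set against the range of the group by Dixon's test, over 20 such groups of the 4 receptor probes. An array stood apart in 3 of them, where chance gives about 1 in 20 groups. For Grm8, control C66 was the lowest of the 8 controls of chip 4, at 8.22, with a gap of 0.55 of the range; it is also the array with the fewest detected probes. For Grm3, ethanol-treated mouse A28 was the highest of the 8 mice of chip 2 (gap 0.541 of the range), and for Grm4, A9 was the highest of the 8 mice of chip 1 (gap 0.558 of the range). Neither probe was detected on these arrays, with a detection p-value against negative control beads of 0.211 for Grm3 on A28 and 0.130 for Grm4 on A9.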

How the results depend on the processing

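Neither receptor passed an FDR of 1% in ethanol against control under any setting run, including an FDR of 10% with a 1.1-fold change; Grm8 did pass between chips with median scaling, as given above. Over 14 settings other than leaving out single arrays in turn, Grm7 ranged from -0.058 to 0.097 (adjusted p 0.155 to 0.903 by limma) and Grm8 from -0.055 to 0.16 (adjusted p 0.0686 to 0.902 by limma). The sign turned with chip as a fixed block and on chip 3 alone (-0.021 for Grm7 and -0.055 for Grm8 in both), and with chip and position together (-0.058 and -0.052); these rest on the 8 arrays of chip 3. With 1 array left out, Grm7 ranged from 0.022 to 0.056 and Grm8 from 0.055 to 0.10 over all arrays, the lowest without control C66, and from -0.057 to 0.012 and from -0.12 to 0.0067 in both settings that rest on chip 3. Odd minus even for Grm8 was 0.0054 with normexp background. The first form of the transform gave 0.035 for Grm7 and 0.066 for Grm8, with 833 probes called.

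The 839 probes called became 500 with median scaling (488 higher, 12 lower; the median of all probes moved to 0.072), 14 with chip as a fixed block, 72 as a random block, 297 on chip 3 alone, 2 with chip and position, and 1325 at an FDR of 10% with a 1.1-fold change. With 1 array left out they ranged from 0 (chip as a fixed block) to 1012, and from 568 to 1012 over all arrays. Of the 34 pathway genes, 1 passed with median scaling (0 lower), 4 on chip 3 alone, 3 with all probes tested, 3 without C66, and 0 with chip as a fixed or random block or with chip and position, while 8 passed without chip 3, 8 with position as a covariate and 10 at an FDR of 10% with a 1.1-fold change. With 1 array left out, 0 to 7 passed. Gnaq turned to -0.063 with chip and position. Pick1 turned to -0.042 without chip 3, -0.024 with position and -0.049 with chip and position, and ranged from -0.0024 (without control C56) to 0.18 with 1 array left out. Slc1a2 ranged from -0.0077 to 0.079 with 1 array left out. The cause of these changes was not tested. Leaving out any of the 32 arrays, the first form of the transform and the settings for the pathway genes and chip contrasts were added after the data had been seen. No paired analysis was possible because the 2 groups share no mouse numbers.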
